A study of Mus musculus with 12 samples.

Results

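Heat shock proteins and their J-domain partners were followed in mouse dendritic cells exposed to nanoparticles. Members were chosen by name alone: every gene whose symbol begins with Hspa, Hspb, Hspd, Hspe, Hsph, Hsp90a or Dnaj, leaving out Hspa5, Dnajb9, Dnajb11 and Dnajc3, whose products work in the endoplasmic reticulum (ER). The RefSeq gene table held 69 protein-coding genes of this rule, 62 of them had a matched probe, and 48 of those were measured above background among 18407 genes in all. The 7 without a matched probe were Dnajb5, Dnajb14, Dnajc13, Dnajc21, Hspa1b, Hspb9 and Hspb11.

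The cells were grown for 7 days from the bone marrow of female mice, 6 to 8 weeks old, with GM-CSF at 20 ng/ml, and were used as immature dendritic cells. RNA was taken at 0 h and after 6, 12 and 24 h with nanoparticles of poly(γ-glutamic acid) (γ-PGA), a biodegradable polymer, at 300 µg/ml. Each of the 4 times had 3 samples, given as independent experiments, and every sample had GM-CSF culture in common. The sources used here do not give the genotype of the mice. No culture without particles was kept for 6, 12 or 24 h among these samples, so exposure and time in culture cannot be told apart, and in bulk samples neither can fewer cells of a type and less RNA per cell.

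Heat shock proteins are chaperones that hold unfolded proteins and help them fold. HSP70 works in cycles of ATP hydrolysis, which J-domain proteins start by bringing clients and which HSP110 and other exchange factors end by releasing ADP. HSP90 finishes the folding of kinases and receptors, small heat shock proteins keep clients from clumping, and HSP60 with HSP10 forms the folding chamber of mitochondria. Many of these genes are switched on by heat shock factors, which bind repeats of the unit GAA in alternating orientation, called heat shock elements. In dendritic cells chaperones also carry peptides toward presentation.

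Values came from 2 deposited sources, labelled as the same 12 samples, so a change seen in both is not an independent replication. Scanner values are the log2 intensity of a probe minus the 75th percentile of its array, so 0 is the level of that percentile. In the value table each probe is divided by its own median over the 3 columns at 0 h, on a linear scale. Levels of different probes are not comparable with each other, so changes of 1 probe over time are described. A gene was called higher or lower where the limma adjusted p was below 0.05 and the means differed by 2-fold or more. The comparisons of 6, 12 and 24 h share the 3 samples at 0 h.

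The sources disagreed at 24 h. Scanner arrays labelled 24 h correlated with those at 0 h at a mean r of 0.991, against 0.995 among the arrays at 0 h, and with those at 12 h at 0.91. The table columns labelled 24 h correlated with the 12 h columns at 0.896, with the 6 h columns at 0.742 and with each other at 0.958. The r of intensities also reflects differences in brightness between probes, which ratios leave out. So r is to be compared within a source only. In the table r with the 0 h columns says little, because those hold ratios around 1. At 24 h against 0 h limma called 0.837% of all genes by the scanner and 26.3% in the table, in either direction. Results at 24 h are therefore given for each source apart.

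Markers of the cell types such cultures can hold were summed over their probes as linear scanner signal relative to the 75th percentile, to be read only over time within a list. Of the dendritic cell markers, 7 of 7 were measured, but Cd74 and H2-Ab1 were saturated on all arrays, and the other 5 summed to 70.5 to 73.8 at 0 h, 66.3 to 73.6 at 6 h, 66.8 to 69.2 at 12 h and 74.4 to 76.4 at 24 h. With the saturated probes the sums were 359 to 380, 368 to 420, 403 to 471 and 356 to 365. Of the 7, 1 was higher at 6 and 12 h by the scanner, and the table had 2 higher at 6 h, 1 at 12 h, and 1 higher and 1 lower at 24 h. Macrophage markers, 4 of 6 measured, summed to 127 to 129 at 0 h, 138 to 153 at 6 h, 261 to 288 at 12 h and 127 to 134 at 24 h. By the scanner 2 of these 4 were lower at 6 h, and 1 was higher and 1 lower at 12 h. The table had 2 lower at 6 h, 3 at 12 h and 2 at 24 h, with none higher (median log2 changes of -1.52, -1.94 and -1.07). Granulocyte markers, 6 of 7 measured, summed to 147 to 152, 133 to 153, 157 to 169 and 148 to 151 without S100a9, which was saturated. By the scanner 2 of 6 of these were lower at 6 h and none was called at 12 or 24 h, while the table had 3 lower at 6 and at 12 h and all 6 at 24 h (median log2 changes of -0.53, -1.07 and -2.12). Of the mast cell and basophil markers, both measured ones were lower in the table at 24 h and neither was called by the scanner at 6, 12 or 24 h. From 0 h to 12 h the sums went from 0.94 to 1.01 to 0.71 to 0.84 for T cells, and from 0.89 to 0.96 to 1.35 to 1.48 for B cells. Mast cell and basophil sums went from 1.05 to 1.13 to 1.27 to 1.42. The NK and erythroid sums rest on 1 of 3 markers each, Klrb1c and Hba-a1. They went from 0.051 to 0.059 to 0.012 to 0.023, with Klrb1c not above background at 12 h, and from 0.10 to 0.13 to 0.12 to 0.15. Csf1r, Cd68 and Ly6g were not measured. These counts are to be read against the shares of all genes called higher and lower. By the scanner these were 10.2% and 15.9% at 6 h, 13.7% and 16.9% at 12 h, and 0.695% and 0.141% at 24 h. In the table they were 13.3% and 11.8% at 6 h, 15.7% and 12.1% at 12 h, and 13.3% and 13.0% at 24 h. The part of these cell types in the results was not tested.

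After 6 h the chaperones that rose in both sources were the inducible HSP70 gene Hspa1a, its neighbour Hspa1l, the ER-associated HSP70 Hspa13 and 4 J-domain genes of class B, Dnajb2, Dnajb3, Dnajb4 and Dnajb6. The histone chaperone Dnajc9 was the single member lower in both. Besides these 7 genes, the scanner values alone had Hspa9, Hsph1, Hsp90aa1, Hspd1, Dnaja1 and Dnajc1 higher and Dnajc28 lower, and the value table alone had Hspb1 and Dnaja2 higher. In the scanner values 13 of 48 members were higher at 6 h than at 0 h and 2 were lower, while limma called 10.2% of all genes higher and 15.9% lower (26.1% in either direction). Among the table values there were 9 members higher and 1 lower, against 13.3% and 11.8% of all genes (25.0% in either direction). The members' median log2 change was 0.21 in the scanner values, beside -0.06 over all genes, and 0.31 in the table, beside 0.14.

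At 12 h the members higher in both sources were the same 7 genes with Hsph1, the HSP110 exchange factor, and Dnajc1, an ER J-domain protein, and Dnajc9 was again lower in both. The scanner values had 14 members higher and 2 lower, beside 13.7% and 16.9% of all genes (30.6% together). The value table had 13 higher and 1 lower, beside 15.7% and 12.1% (27.8% together). Median log2 changes of the members were 0.42 and 0.59, beside -0.03 and 0.22 over all genes. Dnajb3 and Dnajc28 passed the background filter only through times at which they were high, so they had to differ, and without them the scanner counts were 12 higher and 1 lower of 46 at 6 h, and 13 higher and 1 lower at 12 h. The table counts without them were 8 higher and 1 lower at 6 h, 12 higher and 1 lower at 12 h, and 11 higher and 2 lower at 24 h.

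The all-gene median of the value table lay 0.14, 0.22 and 0.12 log2 units above 0 h at 6, 12 and 24 h. With each column centred on its median, 7 members were higher and 1 lower at 6 h, and 12 were higher and 2 lower at 12 h. The same centring turned the all-gene split at 12 h to 2097 genes higher and 2840 lower, in place of 2889 higher and 2227 lower. The arrays lay on 3 slides, and with the slide as a block the scanner fit called 14 members higher and 1 lower at 6 h, and 15 higher and 1 lower at 12 h. Within the slide that held both times, 6 h had replicate 1 alone, and there the members' median log2 change at 6 h was 0.26. Leaving out the 3 samples labelled 24 h gave the same scanner counts of 15 and 16 members called at 6 and 12 h, and 10 and 15 in the table.

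**Figure D1:**
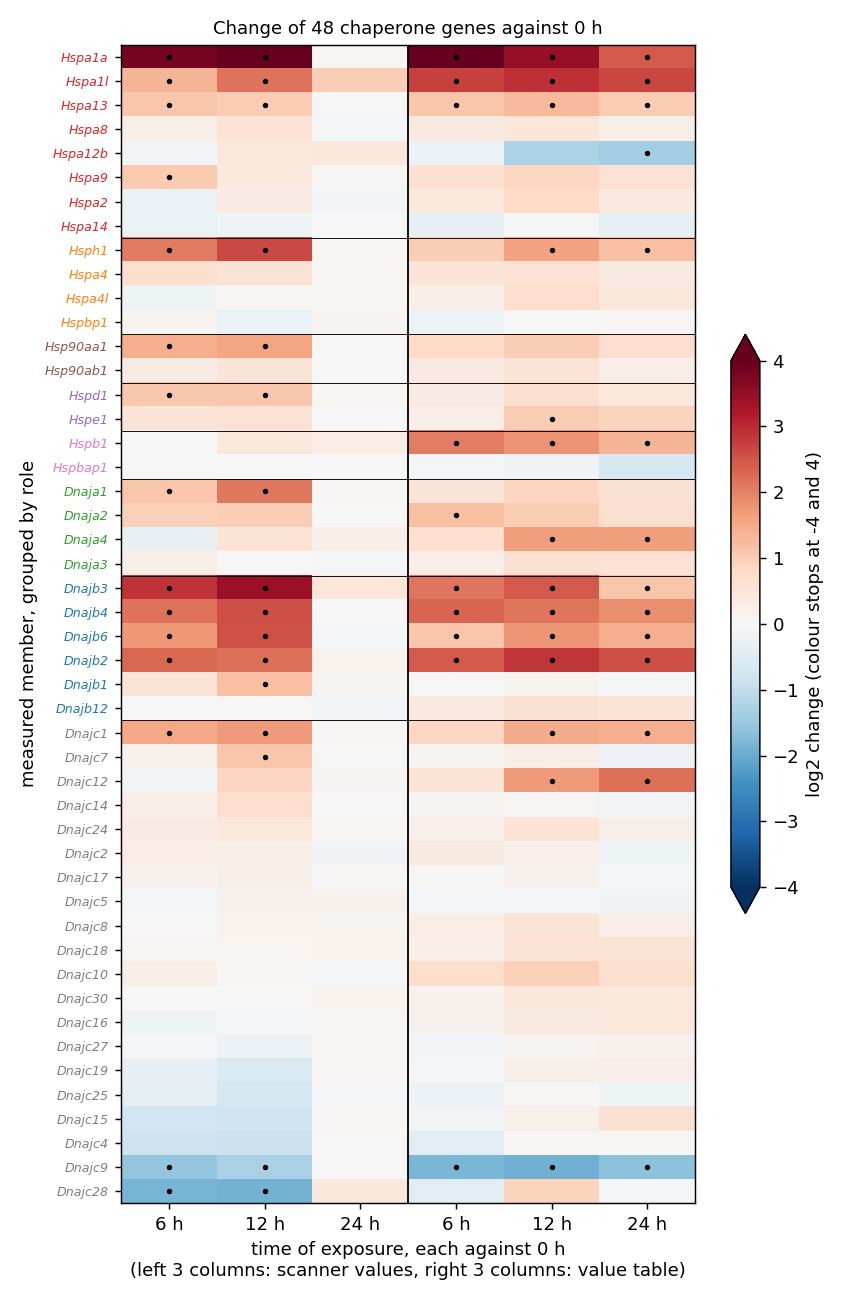
Log2 change against 0 h of the 48 measured members (rows, grouped by role with 1 label colour per role) at 6, 12 and 24 h in the scanner values (left 3 columns) and the value table (right 3 columns). Red is higher, blue is lower, and a black dot marks a limma adjusted p under 0.05 with at least 2-fold change. The HSP70 genes at the top and class B J-domain genes carry most dots at 6 and 12 h, while the scanner column at 24 h has none.

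Promoter sequence is shown for 4 members because heat shock elements are the usual binding motif of the factors that drive these genes. RefSeq promoters of 300 bases, 250 before and 50 after the gene's start (mouse assembly GRCm38.p6), were found for 38 of the 48 members. They were searched for GAANNTTCNNGAA and its other-strand form TTCNNGAANNTTC, which hold 3 units, and for the pairs GAANNTTC and TTCNNGAA, each of which reads the same on both strands and lies within the longer motif. The longer motif stood in 4 of 38 members' promoters (10.5%), against 179 of 27025 genes (0.662%). A pair stood in 11 of 38 (28.9%), against 4587 (17%). A match describes letters only, and binding was not measured. In the stretches below, capitals mark the matched motifs, runs of overlapping matches being joined.
Hspe1 chr1:55087998-55088117 (+ strand): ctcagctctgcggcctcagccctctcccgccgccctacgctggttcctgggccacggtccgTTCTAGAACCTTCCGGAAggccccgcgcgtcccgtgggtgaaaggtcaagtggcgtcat
Dnajb6 chr5:29735778-29735897 (+ strand): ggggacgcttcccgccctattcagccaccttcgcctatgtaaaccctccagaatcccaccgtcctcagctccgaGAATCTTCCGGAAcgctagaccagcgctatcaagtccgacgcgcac
Hspa1a chr17:34972197-34972316 (- strand): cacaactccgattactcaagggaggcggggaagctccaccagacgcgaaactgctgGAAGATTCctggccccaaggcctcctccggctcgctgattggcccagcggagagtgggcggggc
Hspb1 chr5:135887759-135887878 (+ strand): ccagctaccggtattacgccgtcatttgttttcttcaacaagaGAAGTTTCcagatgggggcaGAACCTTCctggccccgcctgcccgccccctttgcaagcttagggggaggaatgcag

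Hspe1 and Hspd1 lie head to head, and the matches above are the same bases in both promoters, read on opposite strands. They began 89 and 84 bases before the start of Hspe1 and 144 and 139 before that of Hspd1. In Dnajb6 the longer motif began 46 bases before 1 listed start and 127 before the other. The promoter of Hsph1 held the longer motif 16 or 37 bases after its listed starts. Hspa1a had a single pair, 104 bases before its start, and Hspb1 had pairs 117 and 97 bases before its start. Dnaja1, Dnaja4, Dnajb4, Dnajc10 and Dnajc27 held pairs too. Dnajc10 and Dnajc27 were called in neither source at any time, so a pair was also present in members that were not called. No promoter in the table matched Dnajc2, Dnajc5, Dnajc12, Dnajc18, Dnajc30, Hsp90aa1, Hsp90ab1, Hspa8, Hspa9 and Hspa13.

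Among the 8 measured HSP70 genes, 4 were higher at 6 h and 3 at 12 h in the scanner values, and 3 were higher at each of 6 and 12 h in the value table. The shares of all genes called higher, against which this and the following counts by role are to be read, were 10.2% and 13.7% by the scanner and 13.3% and 15.7% in the table. Hspa1a, the strongly heat-inducible cytosolic HSP70, read -0.10, -0.03 and -0.10 at 0 h, 3.76, 3.72 and 3.77 at 6 h, 6.02, 6.09 and 5.98 at 12 h, and -0.13, 0.07 and -0.05 at 24 h in the scanner values. The 3 arrays of 6 h and of 12 h lay far above those of 0 h, and those of 24 h overlapped the 0 h arrays. The rise was 14.2-fold at 6 h (log2 change 3.83 ± 0.055 SE over 3 samples at each time, limma adjusted p = 9.18e-12) and 68.8-fold at 12 h (6.10 ± 0.055, limma adjusted p = 5.41e-13). In the value table its ratios were 1.07, 0.968 and 1.0 at 0 h, 18.4, 16.2 and 16.7 at 6 h, 11.0, 12.1 and 10.7 at 12 h, and 5.7, 5.53 and 5.38 at 24 h. All 9 exposed columns lay above the 3 of 0 h, with rises of 16.8-fold, 11.1-fold and 5.47-fold at 6, 12 and 24 h, so the highest time was 12 h by the scanner and 6 h by the table. Hspa1a had 4 kept probes, whose log2 changes ran between 2.80 and 3.83 at 6 h and between 5.25 and 6.12 at 12 h by the scanner, and between 3.61 and 4.10 at 6 h and 2.97 and 3.48 at 12 h by the table. Hspa1a lies between Hspa1b and Hspa1l, and Hspa1b is a near-identical copy with no matched probe, so which of the pair these probes read is uncertain.

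Hspa1l, a close relative known mainly from testis, read -4.16, -4.18 and -3.73 at 0 h, -2.93, -2.57 and -2.53 at 6 h, -1.82, -1.78 and -1.91 at 12 h, and -2.89, -3.27 and -2.96 at 24 h by the scanner. Its arrays at 6, 12 and 24 h all lay above those at 0 h. It rose 2.54-fold at 6 h (log2 change 1.35 ± 0.15 SE, limma adjusted p = 1.71e-05) and 4.54-fold at 12 h, and its change at 24 h was 0.98 ± 0.15, just under the 2-fold limit. The table ratios were 1.0, 0.790 and 1.6 at 0 h, 8.16, 5.33 and 8.82 at 6 h, 8.68, 7.48 and 8.32 at 12 h, and 6.34, 7.0 and 7.6 at 24 h, with rises of 6.72-fold, 7.53-fold and 6.43-fold. With normexp background correction its scanner changes were 0.38 at 6 h and 0.89 at 12 h, under 2-fold, and with quantile normalization its table rises had adjusted p of 0.22, 0.213 and 0.212 at 6, 12 and 24 h. In the table that setting gives the 0 h columns, which hold ratios around 1, the spread of the exposed columns. A table call can be lost for that reason alone, here and for the members below. Hspa13, an HSP70 of microsomes, rose 2.14-fold at 6 h and 2.04-fold at 12 h on the arrays, and in the table it rose 2.17-fold at 6 h and 2.45-fold at 12 h.

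Hspa9, the mitochondrial HSP70 that pulls proteins through the inner membrane, read 2.97, 2.91 and 2.93 at 0 h, 3.95, 3.94 and 4.06 at 6 h, 3.28, 3.31 and 3.39 at 12 h, and 2.99, 3.02 and 3.02 at 24 h by the scanner. It rose 2.07-fold at 6 h (log2 change 1.05 ± 0.045 SE, limma adjusted p = 1.04e-08) and stood 0.39 above 0 h at 12 h, under the 2-fold limit. With quantile normalization the change at 6 h was 0.97, also under it. Its table ratios were 0.914, 1.0 and 1.08 at 0 h, 1.52, 1.63 and 1.39 at 6 h, 1.79, 1.76 and 1.73 at 12 h, and 1.47, 1.47 and 1.48 at 24 h, above 0 h in every exposed column and under 2-fold throughout. Hspa8, the constitutive HSP70, read 6.84, 6.84 and 6.89 at 0 h, 7.23, 6.90 and 7.22 at 6 h, 7.43, 7.44 and 7.35 at 12 h, and 6.82, 6.80 and 6.73 at 24 h on its brightest probe, which was saturated on the 3 arrays at 12 h, so the difference there was at least 1.46-fold. The table ratios of that probe were 1.0, 0.977 and 1.09 at 0 h, 1.42, 1.24 and 1.31 at 6 h, 1.52, 1.43 and 1.32 at 12 h, and 1.19, 1.18 and 1.19 at 24 h, all under 2-fold. A second Hspa8 probe had log2 changes of 0.60 at 6 h and 1.24 at 12 h by the scanner, and of 0.05 and 0.11 by the table, so the 12 h call depended on the probe and the source. Hspa2 and Hspa14 stayed under the threshold, with log2 changes between -0.33 and 0.80 at 6 and 12 h in either source. Hspa12b, a distant HSP70 near background, was called lower in the table at 24 h (2.63-fold, log2 change -1.40 ± 0.54 SE, limma adjusted p = 0.0398), with columns that overlapped those at 0 h. That call was lost without any 1 of the 0 h replicates (adjusted p 0.0611 to 0.0963) and without 24 h replicate 1 (0.104) or 3 (0.151), with only the 0 h and 24 h columns in the fit (0.0729), with no filter on dim probes (0.0716) and with quantile normalization (0.359), and with the slide as a block the change was 0.25, of the opposite sign.

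**Figure D2:**
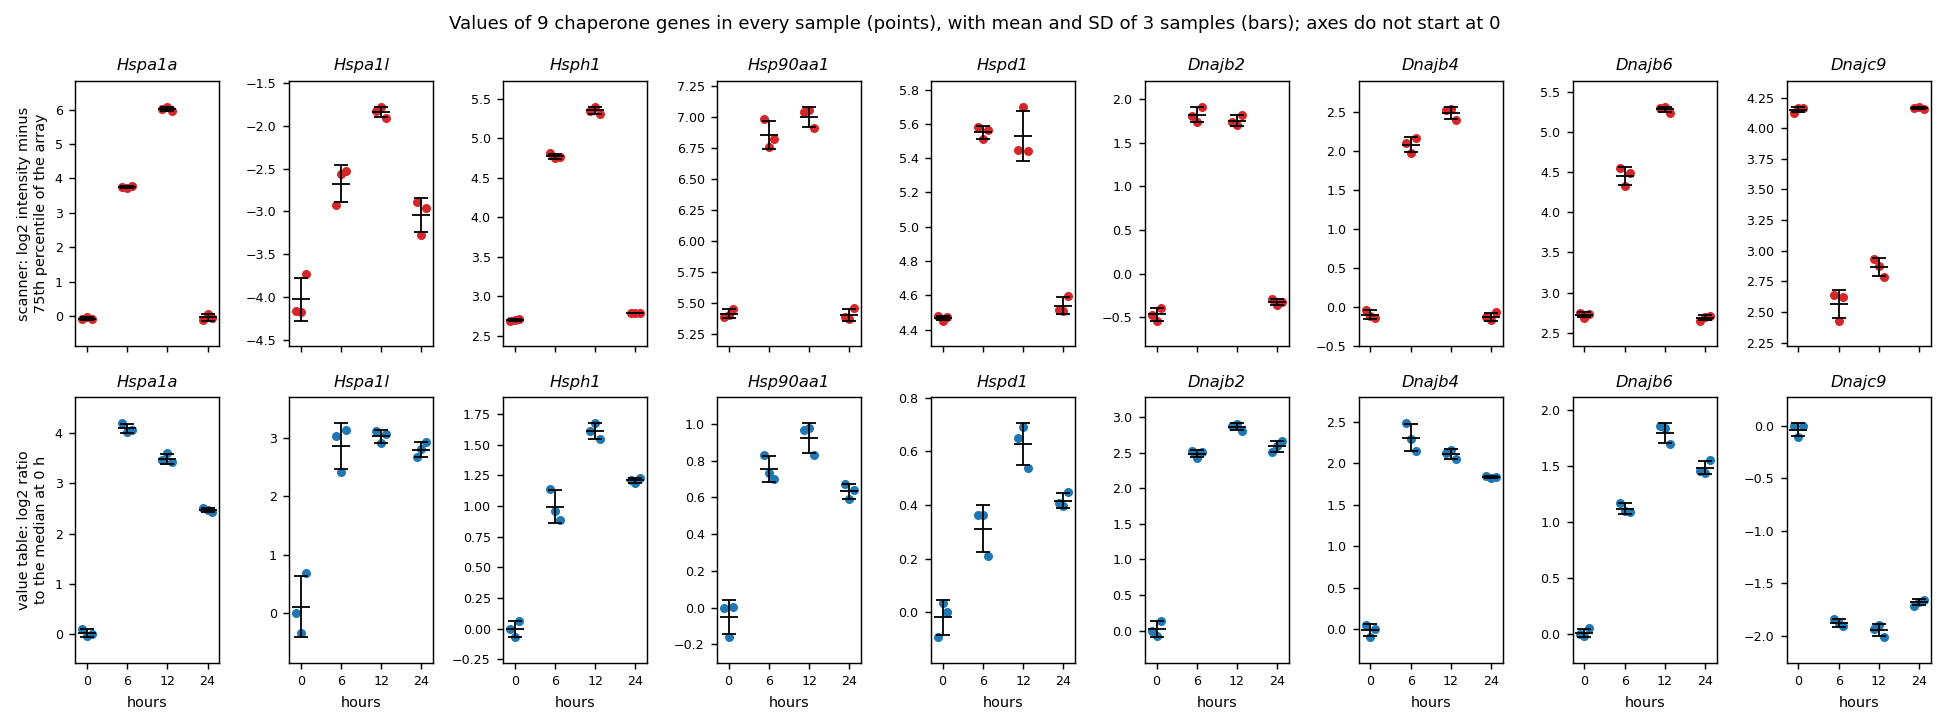
Values of 9 members in each of the 12 samples (points) at 0, 6, 12 and 24 h, with the mean and SD of 3 samples (bars), as scanner log2 intensity minus the 75th percentile (upper row) and as log2 of the table ratio (lower row). Each panel has its own axis, which does not start at 0. In the upper row the points at 24 h lie near those at 0 h for all but Hspa1l, and in the lower row they stand apart from those at 0 h.

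Of the 4 measured exchange factors of HSP70, 1 was higher at 6 and 12 h by the scanner. Hsph1, an HSP110 that resets HSP70 and dissolves aggregates with it, read 2.69, 2.70 and 2.71 at 0 h, 4.81, 4.75 and 4.76 at 6 h, 5.35, 5.40 and 5.31 at 12 h, and 2.78, 2.79 and 2.78 at 24 h by the scanner. The arrays of 6 and 12 h lay far above those of 0 h without overlap. It rose 4.2-fold at 6 h (log2 change 2.07 ± 0.035 SE, limma adjusted p = 2.12e-11) and 6.28-fold at 12 h (limma adjusted p = 3.56e-12). The ratios in the table were 1.0, 0.954 and 1.04 at 0 h, 2.21, 1.94 and 1.84 at 6 h, 3.05, 3.2 and 2.92 at 12 h, and 2.32, 2.28 and 2.34 at 24 h, above 0 h in every exposed column. The table change at 6 h fell just short of 2-fold (log2 change 0.996 ± 0.070 SE), and the rises at 12 and 24 h were 3.06-fold and 2.31-fold.

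Hspa4l, another HSP110, read 1.79, 1.76 and 1.78 at 0 h, 1.54, 1.56 and 1.62 at 6 h, 1.79, 1.77 and 1.89 at 12 h, and 1.86, 1.86 and 1.88 at 24 h by the scanner, a log2 change of -0.21 at 6 h and 0.04 at 12 h. The table ratios were 1.0, 0.950 and 1.27 at 0 h, 1.41, 1.24 and 1.17 at 6 h, 1.81, 1.77 and 1.61 at 12 h, and 1.45, 1.43 and 1.5 at 24 h, and no comparison with 0 h reached 2-fold. Hspa4, the third HSP110, stood 0.63 and 0.56 above 0 h at 6 and 12 h by the scanner and 0.50 and 0.57 by the table, also under 2-fold. Hspbp1, an exchange factor of another fold, had changes between -0.27 and 0.12.

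The 2 cytosolic HSP90 genes differed in call. Hsp90aa1, the inducible form, read 5.39, 5.40 and 5.45 at 0 h, 6.98, 6.76 and 6.82 at 6 h, 7.05, 7.06 and 6.91 at 12 h, and 5.39, 5.37 and 5.46 at 24 h by the scanner, with the arrays of 6 and 12 h above those of 0 h, and those of 24 h overlapping them. It rose 2.71-fold at 6 h (log2 change 1.44 ± 0.064 SE, limma adjusted p = 1.25e-08) and 3.01-fold at 12 h. In the table it stood at 1.0, 0.895 and 1.0 at 0 h, 1.78, 1.66 and 1.62 at 6 h, 1.95, 1.97 and 1.78 at 12 h, and 1.59, 1.51 and 1.56 at 24 h, above 0 h in every exposed column but with no change of 2-fold, the largest log2 change being 0.98 ± 0.065 at 12 h. Hsp90ab1, the constitutive form, read 5.69, 5.68 and 5.69 at 0 h, 6.05, 5.82 and 6.17 at 6 h, 6.26, 6.08 and 6.29 at 12 h, and 5.70, 5.72 and 5.68 at 24 h by the scanner, log2 changes of 0.33 and 0.53 at 6 and 12 h. Table ratios of this gene were 1.0, 0.903 and 1.15 at 0 h, 1.4, 1.22 and 1.28 at 6 h, 1.53, 1.47 and 1.41 at 12 h, and 1.22, 1.21 and 1.2 at 24 h, under 2-fold at each time. Whether the 2 genes differed in their change was not tested.

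Hspd1 (HSP60) and Hspe1 (HSP10) form the mitochondrial folding chamber. Hspd1 read 4.48, 4.45 and 4.47 at 0 h, 5.58, 5.51 and 5.56 at 6 h, 5.45, 5.70 and 5.44 at 12 h, and 4.52, 4.51 and 4.60 at 24 h by the scanner, with the arrays of 6 and 12 h above all others. It rose 2.12-fold at 6 h (log2 change 1.08 ± 0.066 SE, limma adjusted p = 1.61e-07) and 2.09-fold at 12 h, both close to the limit. Without 12 h replicate 2 the change at 12 h was 0.98, under 2-fold, and the quantile setting put both times under it, at 0.83 and 0.62. The change at 12 h was also under 2-fold with normexp (0.99) and as the mean of all probes (0.97). The table ratios of Hspd1 were 0.939, 1.03 and 1.0 at 0 h, 1.29, 1.28 and 1.16 at 6 h, 1.57, 1.61 and 1.45 at 12 h, and 1.33, 1.32 and 1.37 at 24 h, under 2-fold throughout.

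Hspe1 read 3.51, 3.48 and 3.53 at 0 h, 4.10, 3.97 and 4.04 at 6 h, 4.09, 4.13 and 4.01 at 12 h, and 3.47, 3.46 and 3.53 at 24 h by the scanner, log2 changes of 0.53 and 0.57. Its table ratios were 0.948, 1.0 and 1.01 at 0 h, 1.26, 1.16 and 1.16 at 6 h, 1.96, 2.07 and 1.92 at 12 h, and 1.82, 1.78 and 1.82 at 24 h, and the rise at 12 h passed at 2.01-fold (log2 change 1.01 ± 0.051 SE, limma adjusted p = 3.55e-08). Without 0 h replicate 1 or 12 h replicate 2 that change was 0.98, and with centred columns it was 0.78. Both genes of the chamber stood above 0 h at 6 and 12 h in every sample of both sources, and which of the 2 genes passed 2-fold depended on the source.

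Small heat shock proteins were near or below background. Hspb2, Hspb3, Hspb6, Hspb7 and Hspb8 did not pass the background filter. Hspb1, the small heat shock protein known as HSP25 in mice, read -4.35, -4.26 and -4.05 at 0 h, -3.96, -4.41 and -4.25 at 6 h, -4.01, -3.78 and -3.64 at 12 h, and -4.02, -4.04 and -3.70 at 24 h by the scanner, on 11 of 12 arrays above background, and its arrays at 6 h overlapped those at 0 h. The ratios in the table were 1.63, 0.512 and 1.0 at 0 h, 3.38, 5.24 and 3.42 at 6 h, 2.96, 3.28 and 3.57 at 12 h, and 3.09, 2.08 and 2.16 at 24 h, with 3 unequal values at 0 h. The table called it higher 4.17-fold at 6 h (log2 change 2.06 ± 0.36 SE, limma adjusted p = 0.000485) and 3.46-fold at 12 h, while the scanner changes were 0.01 and 0.41. With the slide as a block the table's adjusted p was 0.14 at 12 h and 0.493 at 24 h, and with quantile normalization it was 0.294 at 6 h and 0.392 at 12 h. Within a slide, where 6 h had replicate 1 alone, the table change at 6 h was 1.84. Without 0 h replicate 2 the table change at 24 h was 0.91, under 2-fold. Hspbap1, which binds Hspb1, was not called in either source.

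Of 6 class B J-domain genes, which bring clients to cytosolic HSP70 and hold aggregation-prone chains, 4 were higher at 6 h and 5 at 12 h by the scanner, with median log2 changes of 1.96 and 2.39. The table had 4 higher at each time, with medians of 1.62 and 1.95 at 6 and 12 h. Without Dnajb3, which had to differ, 3 of 5 were higher at 6 h and 4 of 5 at 12 h by the scanner (medians 1.74 and 2.22), and 3 of 5 at each time in the table (medians 1.10 and 1.78). Dnajb2, a J-domain protein that also binds ubiquitin, read -0.47, -0.54 and -0.39 at 0 h, 1.81, 1.74 and 1.91 at 6 h, 1.74, 1.70 and 1.82 at 12 h, and -0.28, -0.36 and -0.32 at 24 h by the scanner. The arrays of 6 and 12 h stood together, apart from all the others. It rose 4.88-fold at 6 h (log2 change 2.29 ± 0.058 SE, limma adjusted p = 2.46e-10) and 4.66-fold at 12 h. In the table it stood at 1.0, 0.948 and 1.1 at 0 h, 5.76, 5.38 and 5.68 at 6 h, 7.36, 7.5 and 7.02 at 12 h, and 5.68, 6.05 and 6.32 at 24 h, rises of 5.52-fold, 7.19-fold and 5.92-fold.

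Dnajb4, a close relative of the main cytosolic J-domain protein Dnajb1, read -0.03, -0.11 and -0.14 at 0 h, 2.11, 1.97 and 2.16 at 6 h, 2.53, 2.54 and 2.40 at 12 h, and -0.13, -0.17 and -0.07 at 24 h by the scanner. The arrays of 6 and 12 h lay above the other 6, and it rose 4.52-fold (log2 change 2.18 ± 0.061 SE, limma adjusted p = 5.03e-10) and 5.99-fold. The table ratios were 1.04, 0.936 and 1.0 at 0 h, 5.61, 4.92 and 4.45 at 6 h, 4.38, 4.48 and 4.14 at 12 h, and 3.6, 3.55 and 3.58 at 24 h, rises of 5.02-fold, 4.37-fold and 3.61-fold. Its 2 kept probes were called higher at 6 and 12 h in both sources.

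Dnajb6, known for holding back polyglutamine aggregation, read 2.75, 2.69 and 2.73 at 0 h, 4.55, 4.33 and 4.49 at 6 h, 5.30, 5.31 and 5.24 at 12 h, and 2.65, 2.70 and 2.71 at 24 h by the scanner, higher at 12 h than at 6 h in all samples. It rose 3.33-fold at 6 h (log2 change 1.74 ± 0.055 SE, limma adjusted p = 1.13e-09) and 5.9-fold at 12 h. The table ratios were 1.0, 0.991 and 1.04 at 0 h, 2.25, 2.14 and 2.12 at 6 h, 3.61, 3.56 and 3.23 at 12 h, and 2.74, 2.71 and 2.92 at 24 h, rises of 2.15-fold, 3.43-fold and 2.77-fold. With centred columns the table change at 6 h was 0.97, just under 2-fold.

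Dnajb3, a J-domain gene known from testis, read -5.48, -5.11 and -5.22 at 0 h, -2.42, -2.38 and -2.33 at 6 h, -1.79, -1.92 and -1.86 at 12 h, and -4.74, -4.97 and -4.60 at 24 h by the scanner. It was not well above background on any array at 0 h or 24 h, so the level at 6 h was at least 4.35-fold higher and that at 12 h at least 6.24-fold higher than at 0 h (limma adjusted p = 3.7e-09 and 8.16e-10). The bound sets the mean at the bright time against the lowest signal called above background on each array of the dim one. Table ratios of this gene were 1.0, 0.776 and 1.3 at 0 h, 4.95, 4.47 and 3.8 at 6 h, 5.73, 6.48 and 4.39 at 12 h, and 2.53, 1.92 and 2.1 at 24 h, rises of 4.37-fold, 5.45-fold and 2.17-fold. Without 0 h replicate 2 the table change at 24 h was 0.93, under 2-fold, and with quantile normalization the table's adjusted p was 0.194 at 6 h and 0.162 at 12 h. With normexp the scanner change at 6 h was 0.79.

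Dnajb1, the main J-domain partner of inducible HSP70 in the cytosol, divided the sources. The scanner read 4.02, 3.97 and 4.0 at 0 h, 4.56, 4.44 and 4.61 at 6 h, 5.17, 5.21 and 5.17 at 12 h, and 4.09, 4.10 and 4.14 at 24 h, with all later arrays above those of 0 h, and it passed at 12 h only (2.28-fold, log2 change 1.19 ± 0.045 SE, limma adjusted p = 3.38e-09). With quantile normalization that change was 0.80. The table ratios were 1.0, 0.923 and 1.03 at 0 h, 1.07, 0.996 and 0.913 at 6 h, 1.1, 1.14 and 1.01 at 12 h, and 0.921, 0.914 and 0.959 at 24 h, overlapping 0 h at every time, with a log2 change of 0.14 ± 0.073 at 12 h. Dnajb12, of the ER membrane, was called in neither source. Dnajb7, Dnajb8 and Dnajb13 did not pass the background filter.

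Class A genes, whose proteins carry a zinc finger beside the J domain, had 1 of 4 members higher at 6 and 12 h by the scanner. Dnaja1, a farnesylated cytosolic member, read 3.66, 3.65 and 3.66 at 0 h, 4.85, 4.67 and 4.81 at 6 h, 5.80, 5.79 and 5.67 at 12 h, and 3.63, 3.74 and 3.71 at 24 h by the scanner, with 0, 6 and 12 h each apart from the next and 24 h overlapping 0 h. It rose 2.17-fold at 6 h (log2 change 1.12 ± 0.055 SE, limma adjusted p = 3.08e-08) and 4.27-fold at 12 h (limma adjusted p = 2.27e-10). As the mean of its 3 probes the change at 6 h was 0.91, and with quantile normalization it was 0.94, both under 2-fold. Its table ratios were 1.0, 0.934 and 1.04 at 0 h, 1.52, 1.38 and 1.36 at 6 h, 1.81, 1.88 and 1.7 at 12 h, and 1.52, 1.51 and 1.53 at 24 h, above 0 h in every exposed column and under 2-fold. Another of its probes passed in the table at 12 h, with a log2 change of 1.12.

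Dnaja2, the other abundant cytosolic member, lay at the limit in both sources, with log2 changes of 0.94 and 0.98 by the scanner at 6 and 12 h and 1.19 and 0.99 by the table, of which the table's 6 h value was called. Dnaja4 rose 3.19-fold at 12 h and 3.16-fold at 24 h in the table, while its scanner probe, above background on 10 of 12 arrays, changed by 0.56 ± 0.24 at 12 h. Dnaja3, of mitochondria, was called in neither source.

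**Figure D3:**
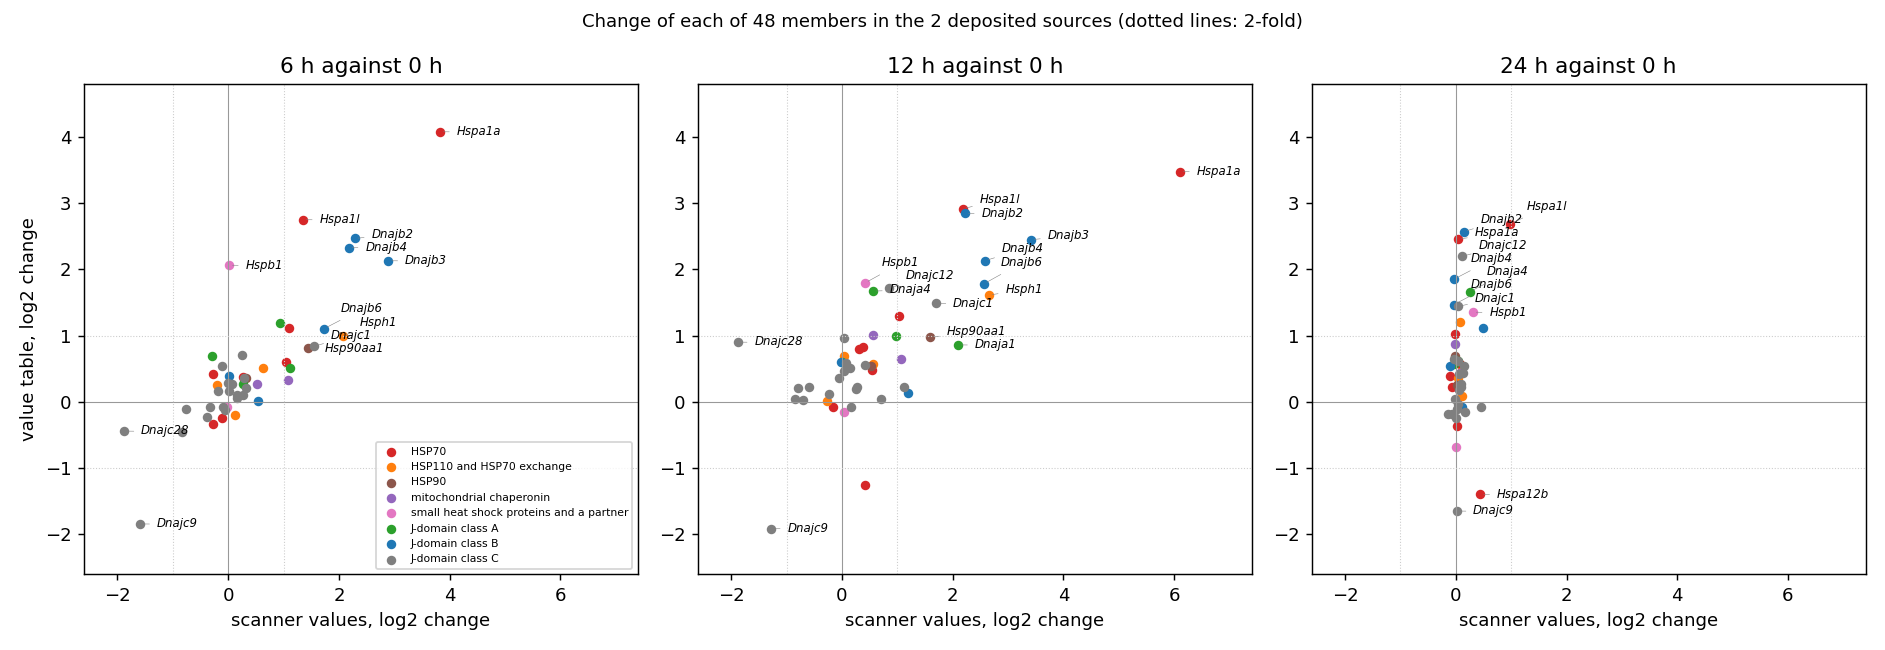
Log2 change against 0 h of each of the 48 members in the scanner values (horizontal axis) and the value table (vertical axis) at 6, 12 and 24 h, coloured by role, with dotted lines at 2-fold and names for the members farthest from 0. Hspa1a and the class B genes Dnajb2, Dnajb3, Dnajb4 and Dnajb6 lie high on both axes at 6 and 12 h. The class B genes Dnajb1 and Dnajb12 stay under 2-fold in the table. At 24 h the points form an upright band, since no scanner change reached 1 while 12 table changes were called higher.

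Class C, the J-domain proteins with other domain orders and mixed duties, had 20 measured members, of which 1 was higher and 2 were lower at 6 h and 2 were higher and 2 lower at 12 h by the scanner, shares under those of all genes. Without Dnajc28, which had to differ, 1 of 19 was lower at each time. The table had 1 lower at 6 h, and 2 higher and 1 lower at 12 h. Dnajc9, a nuclear J-domain protein that handles histones H3 and H4, read 4.13, 4.17 and 4.16 at 0 h, 2.64, 2.43 and 2.62 at 6 h, 2.93, 2.88 and 2.79 at 12 h, and 4.17, 4.17 and 4.16 at 24 h by the scanner. The arrays of 6 and 12 h lay below all those of 0 h and 24 h. It fell 3.01-fold at 6 h (log2 change -1.59 ± 0.059 SE, limma adjusted p = 3.76e-09) and 2.44-fold at 12 h. The ratios in the table were 1.0, 0.929 and 1.0 at 0 h, 0.280, 0.272 and 0.266 at 6 h, 0.262, 0.269 and 0.248 at 12 h, and 0.305, 0.313 and 0.318 at 24 h, falls of 3.58-fold, 3.76-fold and 3.13-fold. Both of its probes were called lower at 6 and 12 h in either source.

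Dnajc28 read -3.67, -2.94 and -3.69 at 0 h, -5.03, -6.15 and -4.74 at 6 h, -5.30, -4.62 and -6.02 at 12 h, and -2.33, -3.60 and -3.03 at 24 h by the scanner and was not well above background on any array at 6 or 12 h. Its level there was at least 1.90-fold lower at 6 h and at least 2.31-fold lower at 12 h than at 0 h (limma adjusted p = 0.00528 and 0.00484). With the slide as a block the adjusted p was 0.062 at 6 h and 0.296 at 12 h, and with normexp the changes were -0.61 and -0.31. The table ratios were 0.986, 1.14 and 1.0 at 0 h, 0.840, 0.740 and 0.721 at 6 h, 1.22, 6.16 and 0.976 at 12 h, and 1.18, 0.833 and 0.979 at 24 h, overlapping 0 h at 12 h, where replicate 2 stood far above the other samples, and at 24 h.

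Dnajc12, a partner of the aromatic amino acid hydroxylases, read 1.66, 1.65 and 1.60 at 0 h, 1.45, 1.56 and 1.56 at 6 h, 2.52, 2.56 and 2.40 at 12 h, and 1.74, 1.77 and 1.72 at 24 h by the scanner, a log2 change of 0.86 ± 0.050 at 12 h, under 2-fold. In the table its ratios were 1.0, 0.938 and 1.03 at 0 h, 1.5, 1.42 and 1.38 at 6 h, 3.39, 3.32 and 3.06 at 12 h, and 4.38, 4.47 and 4.73 at 24 h, higher at each later time without overlap. The table rises were 3.29-fold at 12 h (log2 change 1.72 ± 0.060 SE, limma adjusted p = 2.24e-09) and 4.58-fold at 24 h. Dnajc1, whose J domain faces the ER lumen, rose 2.93-fold and 3.26-fold at 6 and 12 h by the scanner and 2.8-fold at 12 h by the table, where its 6 h change was 0.84 ± 0.072. Dnajc7, which binds both HSP70 and HSP90, rose 2.18-fold at 12 h by the scanner and changed by 0.22 ± 0.053 in the table.

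The other 15 class C members were called in neither source against 0 h. They were Dnajc2, Dnajc4, Dnajc5, Dnajc8, Dnajc10, Dnajc14, Dnajc15, Dnajc16, Dnajc17, Dnajc18, Dnajc19, Dnajc24, Dnajc25, Dnajc27 and Dnajc30. Their log2 changes ran between -0.84 and 0.33 at 6 h and between -0.85 and 0.71 at 12 h by the scanner, and between -0.46 and 0.71 and between -0.08 and 0.97 by the table. The low end at both scanner times was Dnajc4, and Dnajc15, a mitochondrial inner membrane protein, had -0.76 and -0.80 there. Dnajc5, the cysteine string protein of vesicles, had probes that differed, the chosen one with -0.09 and 0.16 and the other with 0.84 and 1.13 at 6 and 12 h by the scanner. Dnajc5b, Dnajc5g, Dnajc6, Dnajc11, Dnajc22 and Hspa12a completed the 14 members below the filter. Just inside it stood Hspb1 (11 of 12 arrays above background), Dnaja4 and Hspa12b (10 each) and Dnajb3 and Dnajc28 (6 each), and just outside Dnajc5b and Dnajc5g (2 each) and Dnajc11 and Hspb6 (1 each).

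**Figure D4:**
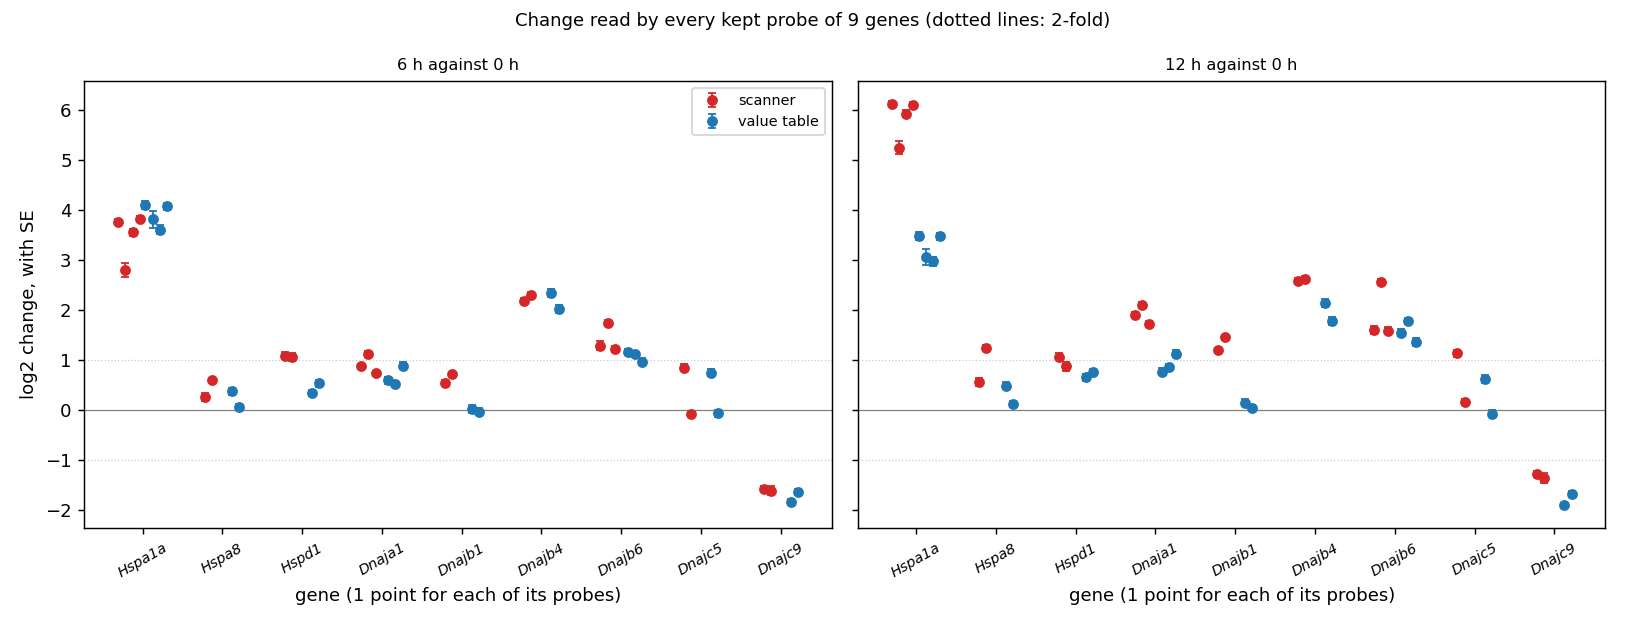
Log2 change against 0 h, with SE, read by every kept probe of 9 members at 6 h (left) and 12 h (right), with scanner values in red and the value table in blue and dotted lines at 2-fold. The 4 probes of Hspa1a, and the probes of Dnajb4, Dnajb6 and Dnajc9, lie on the same side of 0 in both sources, while the probes of Hspa8 and Dnajc5 lie apart from each other.

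Neighbouring times were compared to ask which members went on changing. At 12 h against 6 h the scanner values had 1 member higher and none lower, beside 4.88% and 2.10% of all genes (6.99% together), and that member was Hspa1a (4.85-fold, log2 change 2.28 ± 0.055 SE, limma adjusted p = 1.15e-09). With the slide as a block and within the slide that held both times, 3 members were higher, among them Dnaja1 with a log2 change of 1.05. The value table had 1 member higher and none lower, beside 3.07% and 2.73% (5.80% together), and that member was Dnajc12 (2.27-fold, 1.18 ± 0.060, limma adjusted p = 3.9e-07). Hspa1a had a table change of -0.60 ± 0.069 between these times, of the opposite sign to the scanner's.

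At 24 h against 0 h no member was called by limma in the scanner values, where 0.695% of genes were higher and 0.141% lower (0.837% together). At an unadjusted p under 0.05 there were 9 of 48 members. The share of all genes by that rule is not given here, and the shares above also need adjusted p and 2-fold change. So the 9 members cannot be read against a background. With adjusted p alone, 2 of 48 members and 658 of 18407 genes were called. No other tool was run. The largest scanner change was that of Hspa1l, which was called without 0 h replicate 3 or without 24 h replicate 2. The value table had 12 members higher and 2 lower at 24 h, beside 13.3% and 13.0% of all genes (26.3% together), led by Hspa1l, Dnajb2, Hspa1a and Dnajc12, with Dnajc9 and Hspa12b lower. With centred columns there were 10 higher and 2 lower.

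At 24 h against 12 h the scanner values had 2 members higher, Dnajc9 and Dnajc28, and 13 lower, beside 18.2% and 12.9% of all genes (31.0% together). Without Dnajb3 and Dnajc28 the counts were 1 higher and 12 lower of 46. Hspa1a was 67.0-fold lower (log2 change -6.07 ± 0.055 SE, limma adjusted p = 5.74e-13). In the table none were higher and 2 lower, beside 1.40% and 3.17% (4.57% together), and these were Dnajb3 (-1.33 ± 0.21) and Hspa1a (-1.02 ± 0.069, limma adjusted p = 2.61e-06). Without Dnajb3 and Dnajc28 none were higher and 1 was lower of 46. The Hspa1a fall in the table was just over 2-fold. Without 12 h replicate 2 it was -0.97, with the slide as a block -0.95 and with centred columns -0.91. Within the slide that held both times it was also -0.95, with 12 h replicate 3 as the only 12 h array. No member was called in opposite directions by the sources in any of the 5 comparisons.

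Related genes of protein folding were read from lists of their own. Of 23 heat shock factors and cochaperones, 5 were higher at 6 h and 3 at 12 h by the scanner with none lower, and 2 were higher and 1 lower at 6 and at 12 h in the table. Beside the shares of all genes called higher, 10.2% at 6 h and 13.7% at 12 h by the scanner and 13.3% and 15.7% in the table, the scanner count at 12 h was close to the background and the table counts lay below it. Hsf2, a heat shock factor, was not well above background on any array at 0 h by the scanner. It passed the background filter only through later times and so had to differ, and the scanner counts of 5 and 3 include it. Its level was at least 1.97-fold higher at 6 h and at least 3.52-fold higher at 12 h, with table changes of 0.83 and 0.95 on the log2 scale. Stip1, which bridges HSP70 and HSP90, rose 2.57-fold at 6 h by the scanner and St13, an HSP70 cochaperone, 2.23-fold on the arrays and 2.05-fold in the table. Bag3, an exchange factor of selective autophagy, rose 2.34-fold at 6 h in the table and had a scanner log2 change of 0.80. Fkbp4, an HSP90 immunophilin, fell 2.29-fold at 6 h in the table and its relative Fkbp5 fell 2.27-fold at 12 h.

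Of 13 subunits of the cytosolic chaperonin TRiC and of prefoldin, 2 were higher at 6 h by the scanner and none by the table, and 2 at 12 h in each, where 13.7% of all genes by the scanner and 15.7% in the table were higher. The counts at 12 h are near these shares. At 6 h the shares were 10.2% by the scanner and 13.3% in the table. Cct3 rose 2.89-fold and Cct6a 2.12-fold at 6 h by the scanner, and their table changes were 0.93 and 0.46 on the log2 scale. Of 8 mitochondrial folding and protease genes, 6 were measured, and 1 was lower at 6 and 12 h by the scanner, the iron-sulfur J-domain protein Hscb, which fell 3.27-fold at 6 h. That count is near the shares of all genes called lower by the scanner, 15.9% at 6 h and 16.9% at 12 h. In the table Hscb had a log2 change of -0.58 at 6 h, and no gene of that list was called in the table at 6, 12 or 24 h against 0 h. Of 14 ER chaperones, among them the 4 genes the naming rule leaves out, 2 were higher at 6 and 12 h by the scanner, Hspa5, the ER HSP70, at 2.04-fold and Manf at 2.18-fold at 6 h. These counts are near the shares of all genes called higher by the scanner, 10.2% at 6 h and 13.7% at 12 h. The table had none at 6 h and 2 at 12 h, Hyou1 at 2.25-fold and Creld2 at 2.12-fold, beside the same 15.7% of all genes.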

How the data were processed

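The 12 arrays held 1 sample each, in 4 groups of 3. The intensity values (processed Cy3 signal) were made with Agilent Feature Extraction 9.1.3.1, per the submitters' processing notes, and the scanner files were deposited before any scaling between arrays. The second deposited table holds, per probe, a linear ratio to the median of the 0 h values, as the values themselves show, with a lowest ratio of 0.01. The sources used here do not say how its columns were scaled. Its direction, later time over 0 h, follows from the 0 h median of 1.

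Flagged outlier spots (732 over all arrays) and control spots were left out and log2 intensity minus the 75th percentile of each array was used. Probes well above background on all 3 arrays of at least 1 time were kept (23496 of 41174), at least 0.5 of a probe's spots being above background on an array. Each gene was read from its brightest kept probe on average, and RefSeq accessions gave symbols to 22944 probes and 11576 of 18407 genes. Both sources were fitted with limma 3.58.1 in R 4.3.3 over the 12 samples, with 8 residual degrees of freedom and Benjamini-Hochberg adjustment over all genes, and calls needed at least 2-fold change. The fit was tested on simulated data. Tables and figures used Python 3.11.15, pandas 2.3.3, numpy 2.4.6 and matplotlib 3.10.9.

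The members and lists were chosen with earlier results of these data known. Values in every sample were given for a fixed set of main chaperones, and for the 5 largest rises and falls per time against 0 h, and the 3 largest between neighbouring times, past the threshold with groups that did not overlap. From each related list up to 3 genes were named in each direction. Other members were named to account for all. Alternatives covered background correction, scaling, the filter on dim probes, the probe per gene, the fold limit, the slide, the replicate number, the samples fitted and each sample left out. The number of arrays limits the precision, and the slides partly follow the times.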

Additional observations from a re-analysis of the deposited data

How the results depend on the processing

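With 3 arrays a group and no untreated culture at 6, 12 or 24 h, the counts describe these samples only, and members near 2-fold or near background moved most. Of 3210 single-gene values under alternatives, for 20 genes, 2988 kept their direction and side of the threshold, 106 passed it newly and 48 lost it. The other 68 changed sign, all of them values not called as reported, and no called value changed sign. The alternatives include adjusted p alone, which drops the fold limit and so can only add calls. Outside these genes, the call of Hspa12b in the table at 24 h reversed in sign with the slide as a block (0.25, adjusted p 0.879). The cause was not tested.

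With adjusted p alone, members called by the scanner numbered 34, 37, 2, 25 and 34 in the comparisons of 6, 12 and 24 h against 0 h, 12 h against 6 h and 24 h against 12 h, and 35, 37, 40, 29 and 29 in the table. Of all 18407 genes, the same rule called 13208, 13919, 658, 8731 and 13841 by the scanner. In the table it called 13106, 13601, 13354, 8825 and 8047. The member counts under this rule are to be read against these all-gene counts. Quantile normalization of the table gave 5, 9, 8, 0 and 0, where limma called 2698, 2662, 2637, 186 and 110 genes in all, beside 4609, 5116, 4835, 1067 and 841 as reported. It stretches the 0 h columns of ratios around 1 to the spread of the exposed columns. Calls lost that way do not tell whether a change holds. Normexp on mean signals was not run, and normexp on median signals, chosen after seeing the data, called 2577 genes at 6 h, 3064 at 12 h and 8 at 24 h against 0 h, beside 4800, 5632 and 154. Scaling moved the all-gene split at 24 h against 0 h by the scanner to 107 higher and 72 lower with quantile normalization and 2 and 6 with normexp, beside 128 and 26. In the table it gave 1106 and 1592 at 6 h and 1152 and 1510 at 12 h (quantile), beside 2439 and 2170 and beside 2889 and 2227. At 12 h against 6 h it gave 422 and 654 (centred), beside 565 and 502, and at 24 h against 12 h 364 and 445 (centred) and 46 and 64 (quantile), beside 257 and 584. At 12 h against 6 h the scanner count was 3 with the slide as a block or within a slide, and the table count 2 with the slide block, the mean of all probes or without the samples labelled 24 h. At 24 h against 12 h the table count was 1 with centred columns, with probes above background on all 12 arrays and with the slide block.

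Leaving out each sample in turn, scanner counts in the same order ran over 15 to 15, 14 to 16, 0 to 1, 1 to 3 and 15 to 16, and table counts over 10 to 11, 13 to 17, 11 to 14, 1 to 3 and 1 to 2. The replicate numbers gave no sign of pairing the samples (r of deviations -0.20 to 0.18 by the scanner and -0.23 to 0.28 in the table, 2 of 18 pairs over 0.1 in each). Pairs of unlike number had -0.24 to 0.22 and -0.25 to 0.31, with 7 of 36 over 0.1 in each. Whether the experiments were paired cannot be told from these values. With the replicate block the counts were 15, 16, 0, 1 and 15 by the scanner and 10, 15, 14, 1 and 2 in the table.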
